A study of Homo sapiens with 12 samples.

Results

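The mitochondrial ribosomal protein genes (MRP genes, symbols MRPL and MRPS followed by a number) were followed in the RNA of MR49F, C4-2 and LNCaP, established human prostate adenocarcinoma cell lines. The members were all entries of the gene count table whose Ensembl ID belongs to a protein-coding gene with such a symbol in GENCODE 29, and 78 of the 57992 entries met this rule. All 78 had enough counts to be tested. The lines MR49F (labelled resistant to enzalutamide, a drug used against prostate cancer), C4-2 (labelled sensitive) and LNCaP (labelled sensitive) each had 3 biological replicate libraries of poly(A)-selected RNA. As background, LNCaP was started from a lymph node metastasis, C4-2 was derived from it through tumours in castrated mice and grows without androgen, and MR49F is a LNCaP derivative selected under enzalutamide. Each group is thus a single cultured line, and no drug treatment of the sequenced cells is given in the labels. A line labelled C4-2R was not analysed here. Total counts were between 6990461 and 9375912 in 8 libraries and 42770072 in C4-2 replicate 1, and no member had fewer than 8 counts in any library. The luminal prostate markers KLK3, HOXB13, FOLH1, KRT8 and KRT18 each averaged at least 137 CPM in every line, where CPM is the count scaled to a common library size with TMM factors.

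The mitochondrial ribosome translates the few proteins that the mitochondrial genome encodes, all of them subunits of the oxidative phosphorylation complexes. Its own proteins are encoded in the nucleus, made on cytosolic ribosomes and imported, and they assemble with mitochondrial ribosomal RNAs into a large subunit, which forms peptide bonds, and a small subunit, which decodes the messenger RNA. Many of these proteins have bacterial homologues, and the rest are found only in mitochondria. The symbols do not always give the subunit, since the products of MRPS18A and MRPS30 sit in the large subunit. By this placement 51 members belonged to the large subunit and 26 to the small one. MRPS36, whose product is now assigned to the oxoglutarate dehydrogenase complex, belonged to neither.

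As summed CPM, the MRP genes were at a higher level in MR49F than in either other line. Their summed level was 6327, 6236 and 6536 CPM in the MR49F libraries, 5609, 4946 and 4851 CPM in the C4-2 libraries, and 5436, 5580 and 5361 CPM in the LNCaP libraries. The MR49F libraries were thus all above the others, while C4-2 and LNCaP overlapped because C4-2 replicate 1 lay above every LNCaP library. The sums averaged 6366 ± 154 CPM in MR49F, 5136 ± 413 CPM in C4-2 and 5459 ± 111 CPM in LNCaP (SD, n = 3 each). Genes of the large subunit summed to 4060 ± 92.1 CPM in MR49F, 3240 ± 287 CPM in C4-2 and 3387 ± 85.1 CPM in LNCaP. Those of the small subunit summed to 2271 ± 59.2 CPM in MR49F, 1872 ± 126 CPM in C4-2 and 2045 ± 30.5 CPM in LNCaP. In the small subunit C4-2 and LNCaP did not overlap, though narrowly, with C4-2 replicate 1 at 2012 CPM and LNCaP replicate 1 at 2027 CPM. As summed CPM, both subunits therefore had the same order of the 3 lines. As CPM of the raw library totals, without TMM scaling, the order held but the gap between MR49F and LNCaP was smaller, at 6211 in MR49F, 5046 in C4-2 and 5654 in LNCaP. On that scale C4-2 and LNCaP did not overlap, as the highest C4-2 library was at 5461 and the lowest LNCaP library at 5564. No test was made on these sums. As TPM (counts over exon length, without TMM factors), some members higher by CPM in MR49F than in LNCaP were not higher. Mean TPM was 94.0 in MR49F and 95.1 in LNCaP for MRPL1, and 218 and 221 for MRPL18. For MRPL37 it stayed higher, at 336 in MR49F and 247 in LNCaP. Sums were not made as TPM, so the order of MR49F and LNCaP is given for CPM only. In bulk RNA, fewer cells that express a gene and less of its RNA per cell cannot be told apart.

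**Figure D1:**
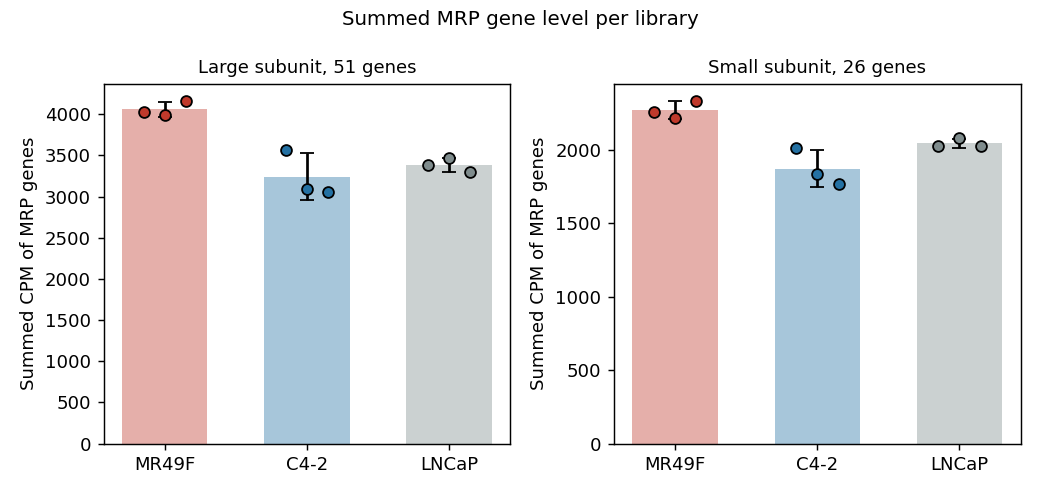
Summed level of the MRP genes in CPM (vertical axes, from 0) for the large and the small subunit in MR49F, C4-2 and LNCaP. Points are libraries, bars are means and error bars are SD (n = 3). The MR49F libraries lie above all others in both panels, and C4-2 replicate 1 lies above the other C4-2 libraries.

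Levels of single members spanned a wide range when set against exon length as TPM, in which counts are divided by exon length and scaled to the same total in every library. The mean over all 9 libraries was between 3.08 and 322 TPM, with a median over members of 83.1 TPM. The highest was MRPS35, a mitochondria-specific small subunit protein, at 314 ± 38.5 TPM in MR49F, 261 ± 37.0 TPM in C4-2 and 391 ± 18.2 TPM in LNCaP. MRPL51 followed with 316 ± 16.8, 268 ± 28.9 and 331 ± 21.8 TPM in MR49F, C4-2 and LNCaP, so its neighbouring position in the order was within the spread of the libraries. The third was MRPL15, a large subunit protein with a bacterial homologue, with 293 ± 4.94 TPM in MR49F, 275 ± 20.1 TPM in C4-2 and 259 ± 4.07 TPM in LNCaP. At the low end stood MRPS24 with a mean of 3.08 TPM, MRPL23 with 7.20 TPM and MRPL53 with 9.49 TPM. MRPS24 shares 23.2% of its exon bases with the readthrough gene URGCP-MRPS24, and MRPL53 shares 45.2% with CCDC142, both on the same strand. Since the handling of shared reads in counting is not given, these low levels are uncertain.

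In MR49F against LNCaP, MRP genes were mainly higher on the TMM-scaled counts used for the test. Of the 78 members, 39 (50%) were higher and 2 (2.56%) were lower at an adjusted p under 0.05 in edgeR's quasi-likelihood test, and 37 were not called. Among all 15407 genes tested, 24.1% were higher and 22.8% were lower. The median log2 fold change of the members was 0.26, with quartiles at 0.08 and 0.38, beside 0.01 over all genes, and 64 members lay above 0. These changes were small for single genes, with only 3 members more than 2-fold apart. As TPM, without TMM factors, some members called higher were nearly level. Mean TPM was 226.5 in MR49F and 219.6 in LNCaP for MRPL3, and 113 and 108 for MRPL16. For MRPL33 it stayed well apart, at 229.9 in MR49F and 130.3 in LNCaP. No calls were made on TPM, so how many of the 39 would hold on that scale was not tested. In the large subunit 26 of 51 members were higher and 1 was lower, and in the small subunit 12 of 26 were higher and 1 was lower. Small subunit proteins with bacterial homologues had 10 of 16 higher with a median log2 fold change of 0.28. The 10 mitochondria-specific small subunit proteins had 2 higher and 1 lower with a median of 0.09. Large subunit members with bacterial homologues (17 higher and 1 lower of 30, median 0.25) and those without (9 higher and none lower of 21, median 0.27) had similar medians, and no difference between classes was tested. MRPS36 was also higher (log2 fold change 0.37, SE 0.112). The count of higher members fell to 25 (32.1%, beside 19.3% of all genes) without LNCaP replicate 3, and that of lower members to 1 without LNCaP replicate 1, while it was 4 without C4-2 replicate 1.

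**Figure D2:**
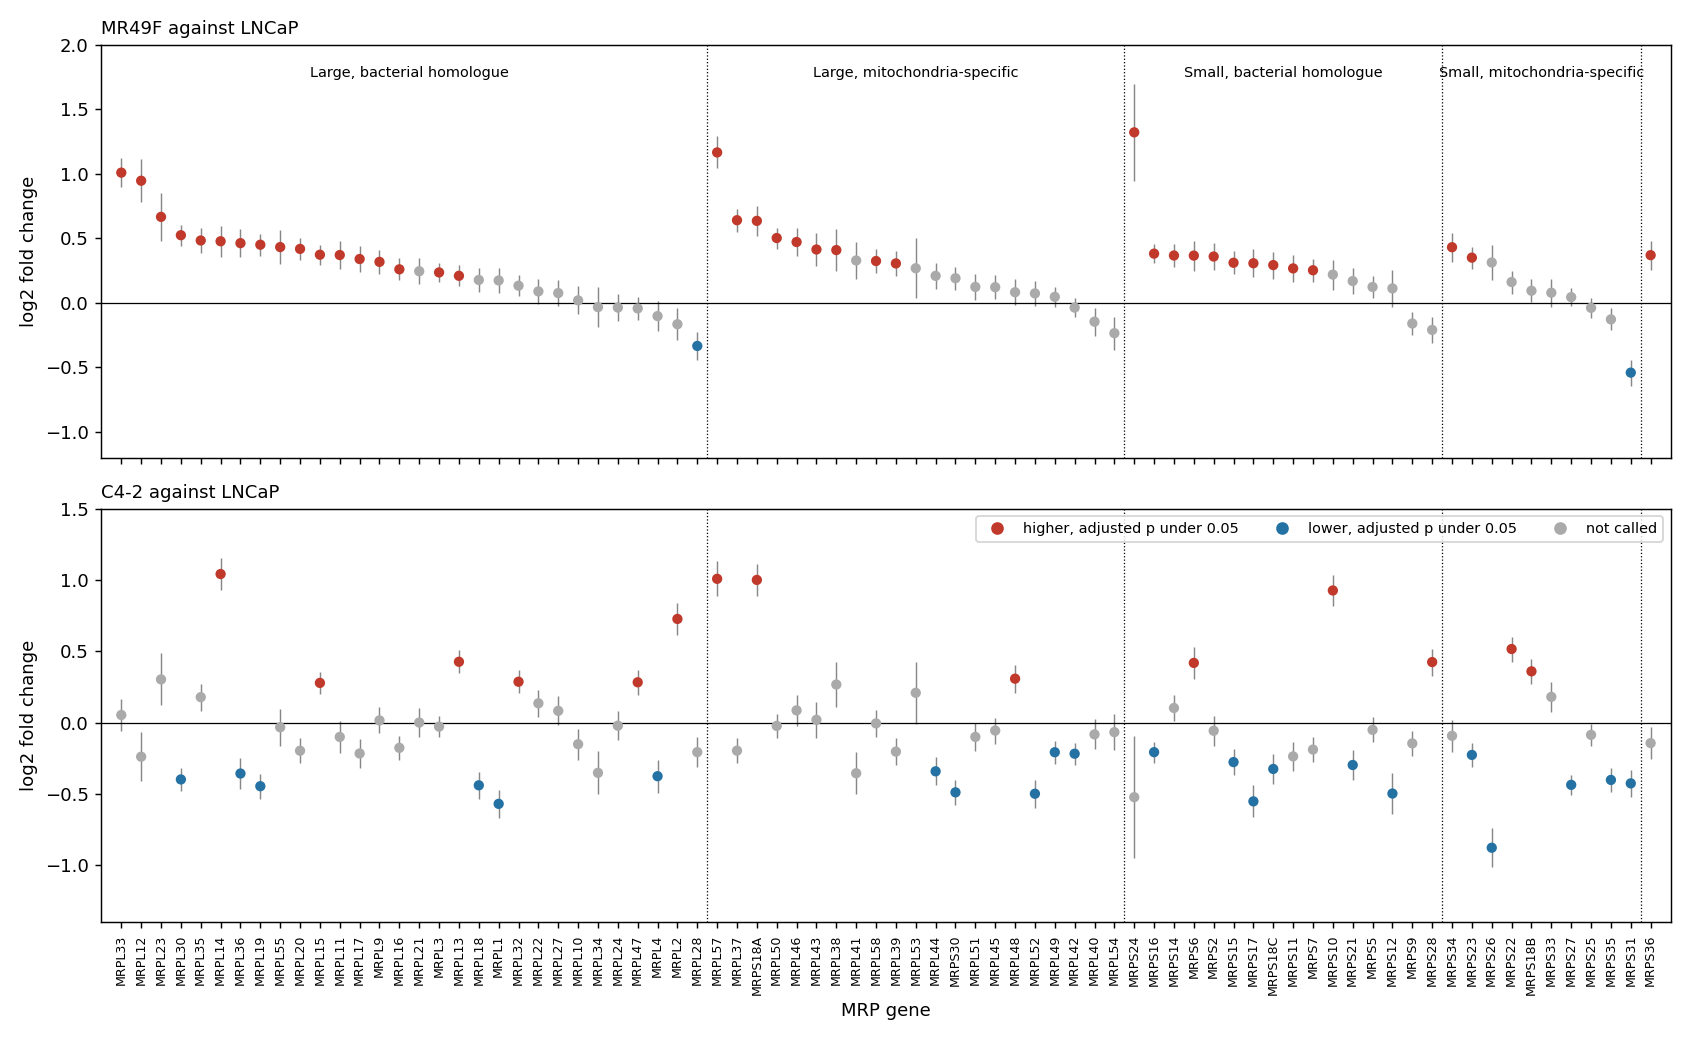
log2 fold change of each of the 78 MRP genes (vertical axis) in MR49F against LNCaP (top) and C4-2 against LNCaP (bottom), with members ordered by class and then by the top panel. Points are estimates of edgeR and bars are SE, red is higher and blue is lower at an adjusted p under 0.05. In MR49F 39 are higher and 2 are lower, and in C4-2 14 are higher and 22 are lower.

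Among members with at least 10 CPM, MRPL57 had the largest log2 fold change in MR49F against LNCaP. MRPL57 encodes a short mitochondria-specific large subunit protein and lies on chromosome 13 (GRCh38 chr13:21176645-21179084, plus strand). Its level was 72.1, 82.5 and 99.6 CPM in MR49F, 87.6, 62.5 and 75.4 CPM in C4-2, and 37.1, 38.7 and 37.5 CPM in LNCaP. Every library of MR49F and C4-2 was above all LNCaP libraries, and MR49F and C4-2 overlapped. The log2 fold change of MRPL57 was 1.17 (SE 0.123, adjusted p = 1.34e-07) in MR49F against LNCaP and 1.01 (SE 0.123, adjusted p = 8.57e-07) in C4-2 against LNCaP, that is 2.24-fold and 2.01-fold.

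MRPL33, a small large-subunit protein with a bacterial homologue, was higher in MR49F than in both other lines (chr2:27771717-27988087, plus strand). It had 109, 95.4 and 134 CPM in MR49F, 63.8, 54.7 and 54.1 CPM in C4-2, and 54.4, 59.8 and 53.8 CPM in LNCaP. The MR49F libraries were clear of both other lines, which overlapped. The log2 fold change was 1.01 (SE 0.11, adjusted p = 1.98e-07) against LNCaP and 0.96 (SE 0.108, adjusted p = 1.8e-07) against C4-2. In C4-2 against LNCaP it was 0.05 (SE 0.111, adjusted p = 0.719). MRPL33 shares 21.1% of its exon bases with BABAM2 on the same strand. Its 250 bases upstream of the RefSeq start (GRCh38.p14, chr2:27771469-27771718, plus strand) are shown because the motif CCGGAAG, in capitals, stands at positions -8 to -2 relative to the start.
MRPL33 upstream: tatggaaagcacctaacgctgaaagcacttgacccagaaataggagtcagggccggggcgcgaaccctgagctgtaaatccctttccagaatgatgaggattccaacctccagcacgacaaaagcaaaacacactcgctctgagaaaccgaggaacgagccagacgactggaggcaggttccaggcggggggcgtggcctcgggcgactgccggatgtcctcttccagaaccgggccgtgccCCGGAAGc

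The protein of MRPL12 forms the stalk of the large subunit that recruits translation factors. MRPL12 had 26.9, 32.5 and 40.6 CPM in MR49F, 16.4, 9.87 and 16.5 CPM in C4-2, and 16.3, 19.3 and 16.1 CPM in LNCaP. All MR49F libraries were above the rest, with a log2 fold change of 0.95 against LNCaP (SE 0.165, adjusted p = 8.69e-05) and 1.19 against C4-2 (SE 0.161, adjusted p = 2.58e-06). Reads of this gene are uncertain, since 68.2% of its exon bases overlap AC139530.2 on the same strand. MRPL37, a mitochondria-specific large subunit protein, had 276, 288 and 256 CPM in MR49F, 175, 148 and 133 CPM in C4-2, and 177, 177 and 172 CPM in LNCaP. Here too the MR49F libraries stood apart, by a log2 fold change of 0.64 against LNCaP (SE 0.0896, adjusted p = 5.81e-06). MRPL30, MRPL50, MRPL35, MRPL14, MRPL46 and MRPS18A completed the 10 largest increases, with log2 fold changes between 0.47 and 0.64 and no overlap between MR49F and LNCaP libraries. MRPS24 had a log2 fold change of 1.32 (SE 0.375, adjusted p = 0.00678) but only 2.08, 3.56 and 7.72 CPM in MR49F, against 1.60, 2.16 and 1.52 CPM in LNCaP. Its groups overlapped, and without MR49F replicate 3 the log2 fold change was 0.65 with an adjusted p of 0.115.

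The members lower in MR49F were MRPS31 and MRPL28. MRPS31 encodes a mitochondria-specific small subunit protein and lies on chromosome 13 (chr13:40729135-40771173, minus strand). It had 24.3, 26.1 and 29.5 CPM in MR49F, 30.0, 27.6 and 28.2 CPM in C4-2, and 38.3, 37.9 and 40.0 CPM in LNCaP. Both derivatives were below LNCaP in every library and overlapped each other. MRPS31 fell by 0.54 on the log2 scale in MR49F (SE 0.10, adjusted p = 0.000159) and by 0.43 in C4-2 (SE 0.0972, adjusted p = 0.00106), both against LNCaP. MRPL28, a large subunit protein with a bacterial homologue, had 50.8, 52.5 and 42.6 CPM in MR49F, against 63.0, 62.3 and 58.4 CPM in LNCaP. Its log2 fold change of -0.33 (adjusted p = 0.0139) was not called without MR49F replicate 3 (-0.26, adjusted p = 0.0805) or without LNCaP replicate 1 (-0.32, adjusted p = 0.0507).

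**Figure D3:**
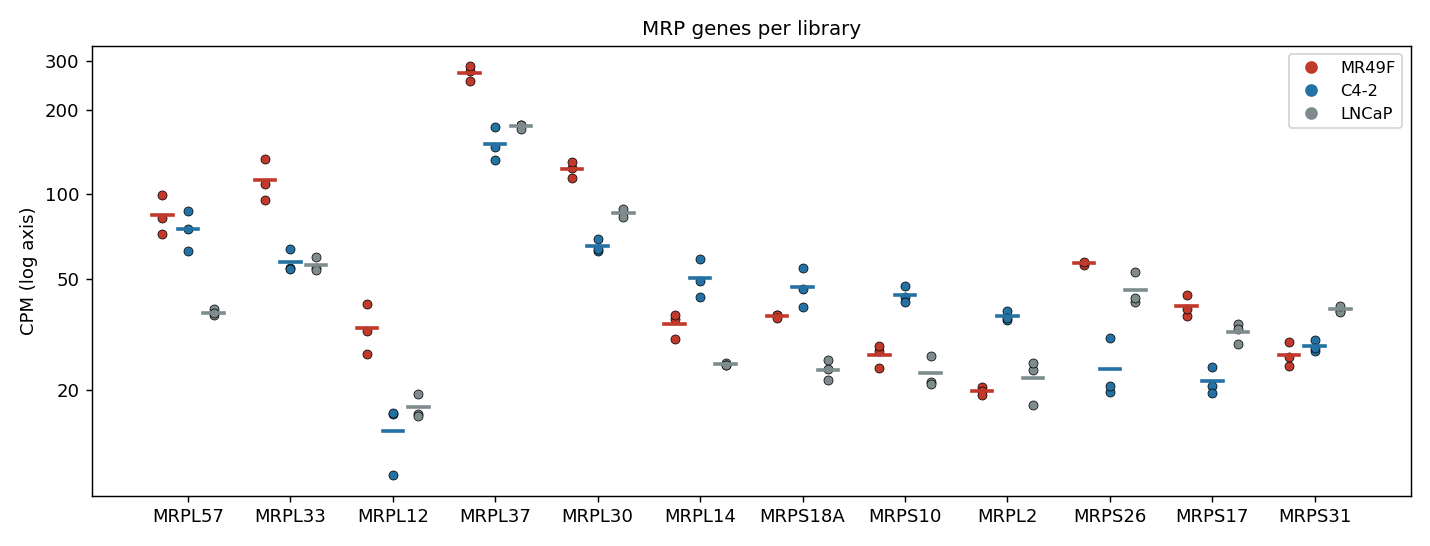
Level of 12 MRP genes in CPM (vertical log axis) in each library of MR49F, C4-2 and LNCaP. Points are libraries and lines are means (n = 3). MRPL57 is high in both derivatives, MRPL33, MRPL12, MRPL37 and MRPL30 are high in MR49F, and MRPL14, MRPS18A, MRPS10 and MRPL2 are highest in C4-2.

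In C4-2 against LNCaP the MRP genes moved both ways. Of the 78 members 14 (17.9%) were higher and 22 (28.2%) were lower, beside 26.2% and 23.5% of all genes tested, so neither share was far from the background with all libraries in. The median log2 fold change was -0.10, and 26 members lay above 0. Members of the large subunit had 9 higher and 11 lower of 51, and those of the small subunit had 5 higher and 11 lower of 26. MRPL14, MRPL57 and MRPS18A were each about 2-fold higher in C4-2, and MRPS26 was 0.544-fold of LNCaP. C4-2 replicate 1, the deepest library, was the highest of its line for 65 of the 78 members. Without it 40 members (51.3%) were lower, beside 23% of all genes tested, and the median was -0.24. Without C4-2 replicate 3 the count of lower members was 14 (17.9%), beside 20.8% of all genes.

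The higher members in C4-2 were led by genes of the short arm of chromosome 6. MRPL14 (chr6:44113454-44127457) and MRPL2 (chr6:43054029-43059806) encode large subunit proteins with bacterial homologues. MRPS10 (chr6:42206801-42217865) encodes such a protein of the small subunit, and MRPS18A (chr6:43671303-43687791) is a mitochondria-specific member of the large subunit. All of these are on the minus strand. MRPL14 had 35.7, 37.1 and 30.4 CPM in MR49F, 58.6, 42.9 and 48.8 CPM in C4-2, and 25, 24.5 and 24.5 CPM in LNCaP. MRPS18A had 37.0, 37.1 and 36.2 CPM in MR49F, 54.5, 39.5 and 45.8 CPM in C4-2, and 23.7, 25.4 and 21.6 CPM in LNCaP. The 3 lines did not overlap for either gene, with C4-2 highest, MR49F between and LNCaP lowest. In C4-2 against LNCaP the log2 fold change was 1.04 for MRPL14 (SE 0.115, adjusted p = 2.4e-07) and 1.00 for MRPS18A (SE 0.114, adjusted p = 3.54e-07). In MR49F against LNCaP it was 0.48 for MRPL14 (SE 0.12, adjusted p = 0.00276) and 0.64 for MRPS18A (SE 0.118, adjusted p = 0.00016). The difference between MR49F and C4-2 for MRPS18A, a log2 fold change of -0.37 (adjusted p = 0.00645), was not called without C4-2 replicate 1 (-0.21, adjusted p = 0.0678).

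For MRPS10 the libraries gave 27.5, 23.9 and 28.7 CPM in MR49F, 43.0, 46.8 and 41.1 CPM in C4-2, and 21.3, 26.5 and 21.0 CPM in LNCaP. MRPL2 had 20.5, 19.8 and 19.1 CPM in MR49F, 38.2, 35.6 and 36.1 CPM in C4-2, and 23.6, 25 and 17.6 CPM in LNCaP. For both the C4-2 libraries were above all others, and MR49F overlapped LNCaP. The log2 fold changes in C4-2 against LNCaP were 0.93 for MRPS10 (SE 0.11, adjusted p = 6.5e-07) and 0.73 for MRPL2 (SE 0.114, adjusted p = 2.12e-05). MRPS22, MRPL13, MRPS28, MRPS6 and MRPS18B were higher by log2 fold changes between 0.36 and 0.52.

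Paralogs of ribosomal protein S18 sit at different places in the ribosome. In C4-2 against LNCaP MRPS18A and MRPS18B were both higher and MRPS18C was lower. MRPS18A is described above. MRPS18B, a mitochondria-specific small subunit protein also encoded on chromosome 6 (chr6:30617709-30626395, plus strand), had 92.7, 91.3 and 82.2 CPM in MR49F, 116, 101 and 101 CPM in C4-2, and 77.3, 84.5 and 87.8 CPM in LNCaP. It was higher in C4-2 than in LNCaP (log2 fold change 0.36, SE 0.087, adjusted p = 0.00183), and MR49F overlapped LNCaP (0.09, adjusted p = 0.406). MRPS18C, the paralog at the position of the bacterial protein, had 25.4, 26.8 and 26.3 CPM in MR49F, 18.1, 16.2 and 16 CPM in C4-2, and 21.5, 21.4 and 21.2 CPM in LNCaP. Its lines did not overlap, with MR49F highest and C4-2 lowest. The log2 fold change of MRPS18C was 0.29 in MR49F against LNCaP (adjusted p = 0.0269) and -0.33 in C4-2 against LNCaP (adjusted p = 0.0147). With no filter on low counts neither was called (adjusted p = 0.115 in MR49F and 0.0565 in C4-2). The first was also not called with DESeq2 (adjusted p = 0.0682), without MR49F replicate 2 or 3, or without any 1 LNCaP library (adjusted p between 0.0604 and 0.0909).

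Lower members in C4-2 came from many chromosomes. MRPS26, a mitochondria-specific small subunit protein, had 56.9, 55.7 and 57.3 CPM in MR49F, 30.6, 19.6 and 20.6 CPM in C4-2, and 41.2, 52.7 and 42.7 CPM in LNCaP. The C4-2 libraries were below all others and the MR49F libraries above all others. The log2 fold change of MRPS26 was -0.88 in C4-2 against LNCaP (SE 0.137, adjusted p = 2.2e-05) and 1.19 in MR49F against C4-2 (SE 0.135, adjusted p = 2.11e-07). In MR49F against LNCaP it was 0.31 (SE 0.132, adjusted p = 0.0585). MRPL1, a protein of the mobile stalk near the exit site of the large subunit, had a log2 fold change of -0.57 in C4-2 against LNCaP. MRPS17, MRPL52, MRPS12, MRPS30, MRPL19, MRPL18, MRPS27 and MRPS31 fell with log2 fold changes between -0.55 and -0.43. MRPS12 encodes a protein of the decoding centre. Without LNCaP replicate 2 it was not called (-0.41, adjusted p = 0.0529).

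Compared directly, MR49F was above C4-2 for most members. Of 78, 46 (59%) were higher and 9 (11.5%) were lower in MR49F, beside 29.9% and 31.1% of all genes, and the median log2 fold change was 0.31 beside -0.0014 over all genes. The large subunit had 29 higher and 5 lower of 51, and the small subunit 16 higher and 4 lower of 26. MRPL30 had 124, 115 and 131 CPM in MR49F, 62.7, 69.5 and 63.5 CPM in C4-2, and 85.9, 88.5 and 83.0 CPM in LNCaP, so that no library of one line overlapped another. Its log2 fold change was 0.92 in MR49F against C4-2 (SE 0.0823, adjusted p = 5.51e-09). MRPL19 had 140, 135 and 165 CPM in MR49F, 76.8, 83.6 and 76.0 CPM in C4-2, and 108, 110 and 104 CPM in LNCaP, likewise with no overlap. The log2 fold change of MRPL19 was 0.90 in MR49F against C4-2 (SE 0.0869, adjusted p = 1.96e-08). MRPS17, MRPL37, MRPL36, MRPL1 and MRPL41 followed with log2 fold changes between 0.68 and 0.86. The lower members were MRPL2 (-0.89), MRPS10 (-0.71), MRPS28 (-0.63), MRPL14 (-0.56), MRPS18A (-0.37), MRPS22 (-0.35), MRPL47 (-0.32), MRPS18B (-0.27) and MRPL13 (-0.22), given as log2 fold changes. Of these, 5 were the short-arm genes of chromosome 6 named above. MRPS28 shares 35.8% of its exon bases with AC036214.3 on the same strand. For MRPS17 the share is 21.8% with AC092647.5, and for MRPL30 it is 19.5% with AC079447.1. The handling of reads shared by these genes is not given either. MRPL13 was not called without MR49F replicate 1 (adjusted p = 0.0875), MR49F replicate 2 (adjusted p = 0.0817) or C4-2 replicate 1 (adjusted p = 0.0671), nor MRPS18B without MR49F replicate 3 (adjusted p = 0.0578).

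Both derivatives were compared with the same LNCaP libraries, so the members called in both are given with each comparison's own values. In opposite directions, higher in MR49F and lower in C4-2, 8 members were called (MRPL30, MRPL19, MRPS17, MRPL36, MRPS18C, MRPS15, MRPS16 and MRPS23), beside 4.36% of all genes tested, and nothing is read from this count because the comparisons share the LNCaP libraries. MRPL57, MRPL14 and MRPS18A were higher in both, and MRPS31 was lower in both, with the values above. MRPL15 had a log2 fold change of 0.37 in MR49F (SE 0.0771, adjusted p = 0.00047) and 0.28 in C4-2 (SE 0.0767, adjusted p = 0.00497) against LNCaP. For MRPS6 the values were 0.37 (adjusted p = 0.0133) in MR49F and 0.42 (adjusted p = 0.0042) in C4-2, but MR49F against LNCaP was not called without MR49F replicate 3 (adjusted p = 0.0822) or LNCaP replicate 3 (adjusted p = 0.0904). MRPL13 had 0.21 in MR49F (adjusted p = 0.0429) and 0.43 in C4-2 (adjusted p = 0.000197), but the first was not called with the replicate block (adjusted p = 0.055) or with DESeq2 (adjusted p = 0.0705). It was also not called with either other filter (no filter, adjusted p = 0.175, and 1 CPM in 3 libraries, adjusted p = 0.0579), with C4-2 replicate 1 thinned (adjusted p = 0.0522), or without any 1 of the MR49F and LNCaP libraries (adjusted p between 0.0693 and 0.187).

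Members tended to differ between lines together with the genes around them. For each member the median log2 fold change was taken over the other tested genes that start within 2 Mb of its start. In C4-2 against LNCaP this median was 0.87 for the 42 genes near MRPL14, of which 90.5% were higher, and 0.81 for the 53 genes near MRPS18A, of which 77.4% were higher. It was 0.78 for the 56 genes near MRPL2 and 0.76 for the 52 genes near MRPS10. These windows overlap one another and share genes. In MR49F against LNCaP the same windows had medians of 0.13, 0.13, 0.13 and 0.07. Around MRPS18B the median was -0.06 in MR49F and 0.33 in C4-2, both against LNCaP. Over the whole of chromosome 6 the 6 members had a median of 0.83 in C4-2 against LNCaP, while the 765 other tested genes had 0.22. Of the 6, 5 were higher and 1 was lower. The lower one was MRPL18 (chr6:159789812-159798436), far from the others, with a log2 fold change of -0.44. The 21 genes near it had a median of -0.51. The whole-chromosome values therefore depend on where the members lie.

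On chromosome 13 the members at both ends of the range also lay among genes that moved the same way. The 22 genes near MRPL57 had a median log2 fold change of 0.62 in MR49F and 0.78 in C4-2, both against LNCaP. The 17 genes near MRPS31 had -0.76 in MR49F, where 82.4% were lower, and -0.47 in C4-2. On chromosome 2 the 48 genes near MRPL33 had a median of 0.54 in MR49F and -0.02 in C4-2 against LNCaP, and the 32 genes near MRPL35 had 0.49 in MR49F and 0.10 in C4-2. Other leading members stood apart from their surroundings, with neighbour medians in MR49F against LNCaP of -0.03 for MRPL37 and 0.09 for MRPL12. The same held for MRPL46 (-0.24), MRPL50 (0.11) and MRPL30 (0.20), and for MRPL14 and MRPS18A (both 0.13). Over the 77 members with at least 5 neighbours, the member's log2 fold change and its neighbour median had a Pearson r of 0.53 in MR49F against LNCaP, 0.76 in C4-2 against LNCaP and 0.59 in MR49F against C4-2. Without chromosome 6 (71 members) the r was 0.55 in MR49F against LNCaP, 0.58 in C4-2 against LNCaP and 0.405 in MR49F against C4-2. On ranks the correlation was lower. Spearman's rho over the 77 members was 0.408, 0.505 and 0.519 in the same order, and 0.41, 0.377 and 0.415 without chromosome 6. These are descriptions across genes, which share libraries and in part their windows, and no DNA copy number was measured.

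**Figure D4:**
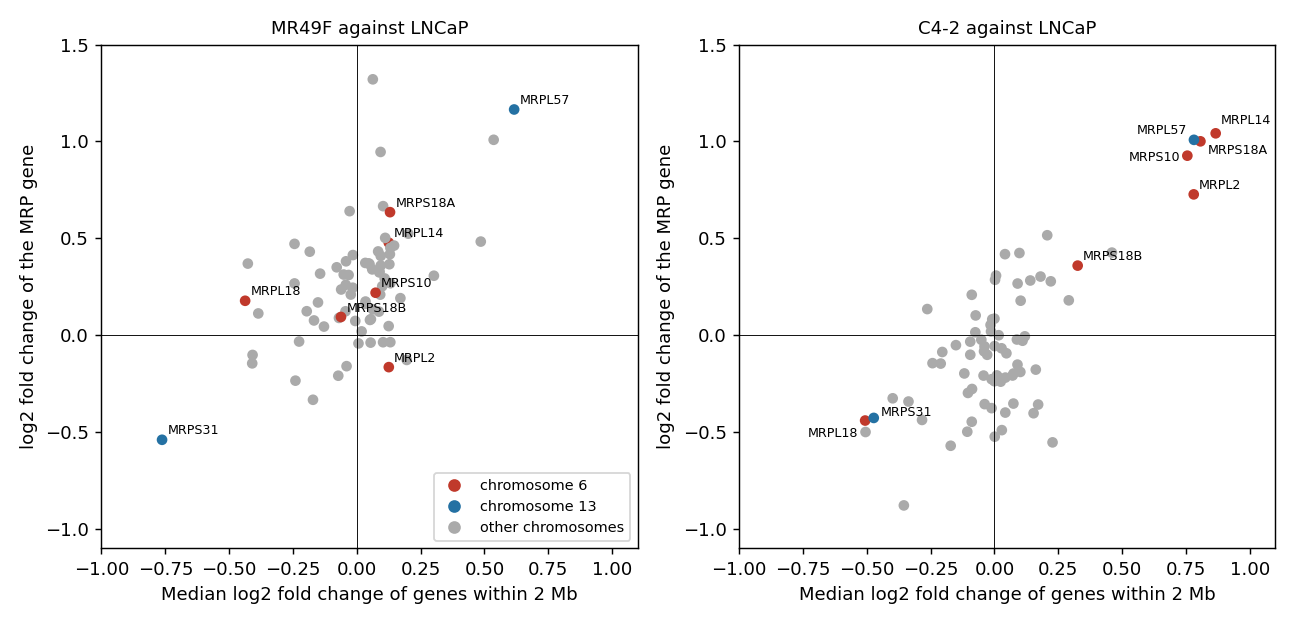
log2 fold change of each MRP gene (vertical axis) against the median log2 fold change of other tested genes within 2 Mb (horizontal axis), in MR49F against LNCaP (left) and C4-2 against LNCaP (right), for 77 members. Points are genes, red on chromosome 6 and blue on chromosome 13. MRPL14, MRPS18A, MRPS10, MRPL2 and MRPL57 stand at the upper right in C4-2, where the Pearson r is 0.76.

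Promoter sequence was compared for the 69 members with an entry in the RefSeq table (GRCh38.p14), in 85 windows of 300 bases that run from 250 bases before the start to 50 after it. Both strands were searched for 4 motifs. The ETS motif CCGGAAG, bound by the family that includes nuclear respiratory factor GABP, was in 38.8% of the MRP windows and in 10.3% of all 35116 windows, or 12.9% of the 21518 windows of protein-coding genes, the kind all members are. The YY1 motif, the 11 letters in capitals in the stretches printed after this paragraph, was in 11.8% of MRP windows, in 0.849% of all windows and in 1.2% of coding windows. The 10-letter palindromic NRF1 motif was in 1.18% of MRP windows, 1.24% of all windows and 1.48% of coding windows, and TATAAA in 3.53%, 11.5% and 9.39% of the same sets. Of the 30 members with the ETS motif, 13 were higher and 2 lower in MR49F against LNCaP, with a median log2 fold change of 0.23. Of the 39 without it, 21 were higher and none lower, with a median of 0.31. The 10 members with the YY1 motif had 6 higher and none lower and a median of 0.44, against 28 higher and 2 lower of 59 and a median of 0.25 for those without it. In MR49F against C4-2 the order was reversed, with medians of 0.26 with the YY1 motif and 0.39 without it. In C4-2 against LNCaP these medians were 0.11 and -0.19. MRPS10, MRPS18A and MRPS18B of chromosome 6 were among the 10. These splits were not tested, and a match does not show that a factor binds. MRPS18A had both motifs, ETS at positions -31 to -25 and YY1 at 10 to 20 relative to the start, while MRPL57, MRPL37, MRPL12 and MRPL14 had no match to any of the 4. The upstream bases of MRPS18A (chr6:43687792-43688041, minus strand) are printed with the ETS motif in capitals.
MRPS18A upstream: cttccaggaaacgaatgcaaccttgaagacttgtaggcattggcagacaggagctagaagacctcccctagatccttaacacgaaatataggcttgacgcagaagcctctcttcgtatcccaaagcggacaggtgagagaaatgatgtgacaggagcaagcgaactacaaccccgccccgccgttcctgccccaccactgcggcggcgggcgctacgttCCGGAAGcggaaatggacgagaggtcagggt

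Stretches around the YY1 motif are given for 7 members so that the shared letters and their flanks can be compared, with the motif in capitals (GRCh38.p14). In MRPL36 the motif is on the opposite strand to the gene, so its reverse complement is printed.
MRPL50, chr9:101398577-101398603, minus strand: tctcatcgAAGATGGCGGCgcgatctg
MRPL46, chr15:88467362-88467388, minus strand: gagaacgaAAGATGGCGGCgcccgtaa
MRPL36, chr5:1799857-1799883, minus strand: ccccccccGCCGCCATCTTccttcctg
MRPS10, chr6:42217834-42217860, minus strand: ggaccggcAAGATGGCGGCgcggacag
MRPS18A, chr6:43687764-43687790, minus strand: ggtttttgAAGATGGCGGCcctcaagg
MRPS18B, chr6:30617855-30617881, plus strand: cgtacgtcAAGATGGCGGCgtctgtat
MRPS30, chr5:44808952-44808978, plus strand: cgcgggcaAAGATGGCGGCggccaggt

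Other genes of mitochondrial translation were followed as lists beside the members. Against LNCaP, 24.1% of all genes tested were higher and 22.8% lower in MR49F, and 26.2% and 23.5% in C4-2. Of 5 further mitoribosomal proteins without an MRP symbol, 3 were higher in MR49F than in LNCaP and none lower, and in C4-2 none was called. PTCD3, a small subunit protein that binds RNA, had 231, 221 and 250 CPM in MR49F, 143, 147 and 151 CPM in C4-2, and 161, 159 and 163 CPM in LNCaP. The MR49F libraries lay above all others, with a log2 fold change of 0.54 against LNCaP (SE 0.075, adjusted p = 5.5e-06). CHCHD1 (0.42) and AURKAIP1 (0.36), small subunit proteins as well, were the others called. Assembly factors of the mitoribosome had 8 higher (27.6%) and 3 lower (10.3%) of 29 in MR49F against LNCaP. The share of higher ones was near that of all genes. In C4-2 against LNCaP 3 were higher (10.3%) and 9 lower (31%). FASTKD2, needed for the large subunit ribosomal RNA, was higher in MR49F (0.71, adjusted p = 4.94e-07), and the helicase DHX30 was lower (-0.44, adjusted p = 0.000353).

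Translation factors and mRNA-binding proteins had 7 higher (43.8%) and 1 lower (6.25%) of 16 in MR49F. In C4-2 they had 2 higher (12.5%) and 5 lower (31.2%). The shares over all genes were 24.1% and 22.8% in MR49F, and 26.2% and 23.5% in C4-2. MTIF3, an initiation factor encoded on chromosome 13, had 51.4, 47.7 and 55.3 CPM in MR49F, 84.2, 82.4 and 79.0 CPM in C4-2, and 23.8, 22.2 and 23.4 CPM in LNCaP. No lines overlapped, and the log2 fold change was 1.15 in MR49F and 1.83 in C4-2 against LNCaP. LRPPRC, which stabilises mitochondrial messenger RNAs, had 332, 338 and 357 CPM in MR49F, 185, 221 and 201 CPM in C4-2, and 270, 275 and 272 CPM in LNCaP. Its lines were also separate, with log2 fold changes of 0.33 in MR49F and -0.43 in C4-2 against LNCaP. Mitochondrial aminoacyl-tRNA synthetases had 4 higher (20%) and 5 lower (25%) of 20 in MR49F, near the shares over all genes. In C4-2 they had 1 higher (5%) and 9 lower (45%). Factors of mitochondrial transcription and RNA processing had 8 higher (61.5%) and 2 lower (15.4%) of 13 in MR49F. In C4-2 they had 1 higher (7.69%) and 5 lower (38.5%). TFAM, which packages mitochondrial DNA and starts its transcription, had 120, 128 and 148 CPM in MR49F, 103, 123 and 116 CPM in C4-2, and 220, 226 and 228 CPM in LNCaP. It was lower in both derivatives, by log2 fold changes of -0.77 in MR49F and -0.98 in C4-2 against LNCaP. TFAM thus went against most of its list in MR49F. Among the higher ones there were TRMT10C (0.58, adjusted p = 5.87e-06) and ELAC2 (0.49, adjusted p = 2.88e-05). In C4-2 against LNCaP these had -0.41 (adjusted p = 0.000328) and 0.09 (adjusted p = 0.381).

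The cytosolic ribosome and oxidative phosphorylation lists give the members a wider setting. The shares over all genes against LNCaP were 24.1% higher and 22.8% lower in MR49F, and 26.2% and 23.5% in C4-2. Of 83 tested cytosolic ribosomal proteins, 42 (50.6%) were higher and 7 (8.43%) lower in MR49F against LNCaP. In C4-2 against LNCaP 6 (7.23%) were higher and 39 (47%) lower, and the medians were 0.25 in MR49F and -0.25 in C4-2. Nuclear-encoded oxidative phosphorylation subunits had 32 higher (41.6%) and 4 lower (5.19%) of 77 in MR49F, with a median of 0.16. In C4-2 they had 17 higher (22.1%) and 6 lower (7.79%), with a median of 0.03. Proteasome subunits had 7 higher (18.9%) and 3 lower (8.11%) of 37 in MR49F. In C4-2 they had 10 higher (27%) and 2 lower (5.41%), with medians of 0.06 in both. The share of higher MRP genes in MR49F was thus close to that of cytosolic ribosomal proteins. Differences between lists were not tested.

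**Figure D5:**
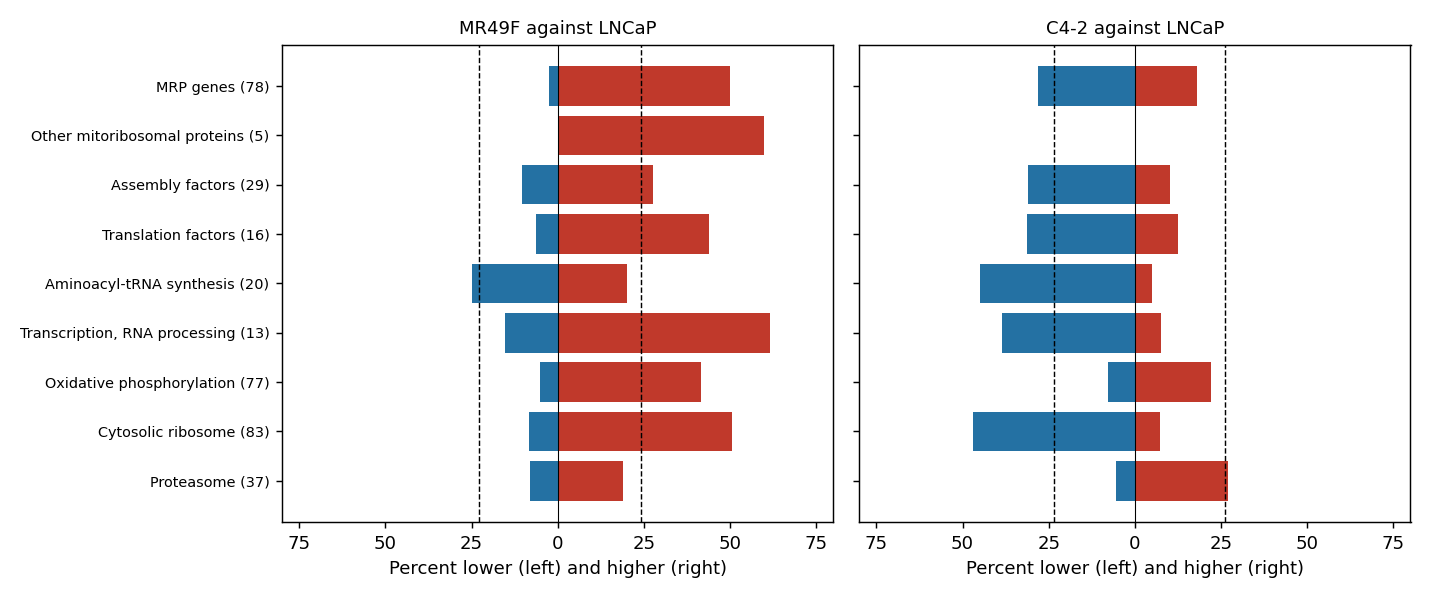
Percent of the tested genes of each list called lower (left of 0) and higher (right of 0) at an adjusted p under 0.05 in MR49F against LNCaP and C4-2 against LNCaP, with the number of genes tested in parentheses. Dashed lines mark the percent of all 15407 genes tested, 22.8% lower and 24.1% higher in MR49F, and 23.5% and 26.2% in C4-2. The MRP bar reaches 50% higher in MR49F.

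Markers of other cell types were low in these cultured lines. Of 12 such markers 5 had enough counts to be tested, and CD3E and KRT5 had no count. Their summed level was 11.3 to 12.8 CPM in MR49F, 26.4 to 33.5 CPM in C4-2, and 32.2 to 36.5 CPM in LNCaP. Of the tested markers, COL1A1 (log2 fold change -2.15), VWF (-2.94) and COL3A1 (-2.68) were lower and SYP (0.99) was higher in MR49F against LNCaP. In C4-2 against LNCaP COL3A1 was higher (1.77) and COL1A1 was lower (-0.64). Their part in the MRP results was not tested.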

How the data were processed

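Per the labels, poly(A) RNA of 4 cell lines, of which 3 are analysed here, went through a TruSeq stranded kit and paired-end HiSeq2500 sequencing. The authors deposited whole-number counts per Ensembl gene, which are not normalized. Tools in the submitters' processing notes, which assign them no role, are TopHat2, HTSeq 0.6.1, FastQC 0.11.3 and edgeR 3.12.1, with build GRCh38.p12. How strand and shared reads were counted, and the annotation release, is not stated in these sources, so overlapping genes and those with pseudogenes are uncertain. The 9 columns whose names match sample titles were used, and 3 other columns were not used.

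IDs were matched to GENCODE 29 (57388 of 57992 matched). The test was edgeR 4.0.16's quasi-likelihood test (robust, TMM, filterByExpr by line) in R 4.3.3 on 9 libraries, with 1 mean per line, 6 residual degrees of freedom and Benjamini-Hochberg adjustment over 15407 genes. The common biological coefficient of variation was 0.0817. SE is the absolute log2 fold change over the square root of F. CPM uses TMM-scaled library sizes, and TPM uses union exon lengths. Replicates are cultures of 1 line, so p-values measure the spread between cultures. No pair of replicates agreed within sampling noise (lowest chi-square per degree of freedom 1.49). This value was 1.49 to 1.8 in LNCaP, 2.07 to 5.56 in MR49F and 5.84 to 24 in C4-2. Both pairs with C4-2 replicate 1, the deepest library, were above the third C4-2 pair. The fit shares 1 estimate of the spread over the 3 lines. Alternatives were DESeq2 1.42.0, voom of limma 3.58.1, RLE scaling, other filters, only the 6 libraries compared, a replicate block, C4-2 replicate 1 thinned to 17.6% of its counts, and leaving out each library. Fits were tested on simulated data. Promoter sequences are RefSeq's.

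Named members are, per comparison and direction, the 10 with the largest change among those called whose higher line averaged 10 CPM or more, those called in both derivatives, the S18 paralogs, and the 3 highest and 3 lowest by TPM. For other lists the named genes are among the 3 lowest by adjusted p, per comparison, except PPARGC1B, named because it was the regulator called lower in MR49F. The members and lists were chosen with earlier results of these data known.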

Additional observations from a re-analysis of the deposited data

Results flagged for a closer look

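For 8 members the effects in the derivatives had opposite signs, higher in MR49F and lower in C4-2 than in LNCaP and called in both in edgeR. Of all 15407 genes tested, 4.36% were called in these directions. Both comparisons share the LNCaP libraries, and choosing members by opposite calls fixes the sign of the difference between MR49F and C4-2, so the differences are given as a description with no test. The difference of the log2 fold changes, MR49F minus C4-2, was 0.92 for MRPL30, 0.90 for MRPL19, 0.86 for MRPS17 and 0.82 for MRPL36. It was 0.62 for MRPS18C, 0.59 for MRPS15, 0.59 for MRPS16 and 0.58 for MRPS23.

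In MRPS16, a small subunit protein with a bacterial homologue, the libraries gave 236, 237 and 256 CPM in MR49F, 167, 165 and 152 CPM in C4-2, and 185, 188 and 187 CPM in LNCaP. MRPS23 had 124, 123 and 126 CPM in MR49F, 92.9, 80.5 and 74.8 CPM in C4-2, and 101, 97.7 and 94.6 CPM in LNCaP. MRPS15 had 135, 132 and 135 CPM in MR49F, 101, 86.3 and 77.7 CPM in C4-2, and 105, 113 and 106 CPM in LNCaP. In all of these the C4-2 libraries were lowest and the MR49F libraries highest, with no overlap. The C4-2 call against LNCaP was lost without C4-2 replicate 3 for MRPS15 (-0.20, adjusted p = 0.0929), MRPS16 (-0.17, adjusted p = 0.11), MRPS23 (-0.16, adjusted p = 0.158) and MRPL36 (-0.27, adjusted p = 0.0615). It was also lost without LNCaP replicate 2 for MRPL36 (adjusted p = 0.0646) and MRPS15 (adjusted p = 0.0678), without any 1 LNCaP library for MRPS16 (adjusted p between 0.0564 and 0.0694) and MRPS23 (between 0.0516 and 0.112), and without C4-2 replicate 2 for MRPS23 (0.0705). With no filter on low counts it was lost for MRPS16 (0.0796), MRPS23 (0.0703) and MRPS18C (0.0565), and with only the 6 libraries compared for MRPS23 (0.0539). The MR49F call against LNCaP was lost for MRPS17 without MR49F replicate 1 or 3 or LNCaP replicate 1 or 3 (adjusted p between 0.0564 and 0.178) or with no filter on low counts (0.0501), and for MRPS15 without LNCaP replicate 1 (0.0522).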

How the results depend on the processing

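With DESeq2, voom, RLE scaling, other filters, thinning and the replicate block, the counts of higher and lower MRP genes stayed within 1.5 times the reported ones, and with only the 6 libraries compared 4 members were lower in MR49F against LNCaP. Leaving out 1 library gave 25 to 45 higher and 1 to 4 lower members in MR49F against LNCaP (median log2 fold change 0.22 to 0.28), 11 to 15 higher and 14 to 40 lower in C4-2 against LNCaP (median -0.24 to -0.053), and 41 to 53 higher and 7 to 12 lower in MR49F against C4-2 (median 0.27 to 0.45). Over all genes these ranges were 2953 to 4399 and 3083 to 4076, 3456 to 4275 and 3007 to 3958, and 4249 to 4677 and 4472 to 5013. Summed levels as CPM of raw totals were 6211 in MR49F and 5654 in LNCaP. Neighbour medians moved with the window. In MR49F against LNCaP they were -0.016 (1 Mb) and 0.038 (5 Mb) for MRPL2, 0.047 (5 Mb) for MRPS18A, -0.26 (1 Mb) for MRPS18B, 0.75 (1 Mb) and 0.68 (5 Mb) for MRPL57, and -0.60 (5 Mb) for MRPS31. In C4-2 against LNCaP they were 1.03 (1 Mb) for MRPL14, 0.64 (1 Mb) for MRPS10, 0.25 (1 Mb) and 0.24 (5 Mb) for MRPS18B, 1.19 (1 Mb) and 0.88 (5 Mb) for MRPL57, and -0.19 (5 Mb) for MRPS31. The cause of these shifts was not tested. Same-numbered libraries did not pair (r between -0.08 and 0.06), and the replicate block gave 37 higher and 2 lower for MR49F and 14 higher and 25 lower for C4-2, each against LNCaP, with 46 higher and 9 lower for MR49F against C4-2. Over named members and settings, 1999 values kept their direction and call, 35 gained a call, 57 lost one and none reversed. Members under 10 CPM such as MRPS24 rest on few counts.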

Other observations

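Pseudogenes of MRP genes had few counts in these libraries. Of the 75 listed, 57 had no count in any library, and all of them together held 1689 counts beside 612481 counts of the members. The exceptions above 5% of their parent's counts were MRPL45P2, with 8.49% of the count of MRPL45, and MRPS31P4, with 9.32% of the count of MRPS31.

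Regulators of mitochondrial biogenesis had 3 higher and 1 lower of 9 in MR49F, and none higher and 3 lower in C4-2, against LNCaP. The shares over all genes were 24.1% higher and 22.8% lower in MR49F, and 26.2% and 23.5% in C4-2. MYC had 385, 384 and 371 CPM in MR49F, 182, 164 and 179 CPM in C4-2, and 273, 265 and 254 CPM in LNCaP, with no overlap between lines. Its log2 fold change was 0.52 in MR49F (SE 0.0729, adjusted p = 5.39e-06) and -0.59 in C4-2 (SE 0.0736, adjusted p = 1.15e-06) against LNCaP. PPARGC1A, a coactivator of mitochondrial genes, was low, with 4.6, 3.68 and 4.84 CPM in MR49F, 1.15, 2.02 and 2.72 CPM in C4-2, and 1.17, 1.25 and 0.827 CPM in LNCaP. Its log2 fold change was 1.98 in MR49F against LNCaP (SE 0.328, adjusted p = 4.33e-05). PPARGC1B, at a higher level, was the regulator called lower in MR49F. It had 22.8, 21.5 and 20.3 CPM in MR49F, 23.6, 39.5 and 31.9 CPM in C4-2, and 31.6, 30.2 and 27.4 CPM in LNCaP. The log2 fold change of PPARGC1B was -0.47 in MR49F against LNCaP (SE 0.149, adjusted p = 0.0131). Besides MYC and PPARGC1A, ESRRA was called higher in MR49F, with 69.2, 77.8 and 75.5 CPM, against 43.6, 59.0 and 48.9 CPM in LNCaP. The log2 fold change of ESRRA was 0.55 (SE 0.108, adjusted p = 0.000268), and in C4-2 against LNCaP it was 0.09 (adjusted p = 0.509). The 13 protein genes of the mitochondrial genome were listed at 0 in every library, so the messages that the mitoribosome reads were not analysed here.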
